A study of Mus musculus with 46 samples.

Results

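The replication-dependent histone genes were described in AB1-HA tumours before and after cyclophosphamide (CY). Members were chosen by name alone: every symbol of the count table that starts with Hist1h, Hist2h, Hist3h or Hist4h. The rule gave 70 genes of the 46011 with a complete set of counts. By the class in the symbol, 6 are linker histone H1, 20 H2A, 19 H2B, 12 H3 and 13 H4 members. Among them, 3 are annotated as pseudogenes: Hist1h2aj and Hist1h2al (counted as H2A) and Hist3h2bb-ps (counted as H2B). By the cluster in the symbol, 56 are Hist1 on chromosome 13, 10 Hist2 on chromosome 3, 3 Hist3 on chromosome 11 and 1 Hist4 on chromosome 6. Hist1h2al (chr13:51202727-51203065) lies apart from the other Hist1 members. All 70 matched a gene of the same symbol in GENCODE M21, which is on the build of the deposited counts (GRCm38).

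AB1-HA is a single mesothelioma line of BALB/c origin that carries influenza haemagglutinin, grown subcutaneously in male BALB/c mice aged 8 to 10 weeks. Each mouse carried tumours on both sides; 1 was resected for RNA and the other was followed, so the response label comes from the tumour that was not sequenced. All groups, those resected before treatment included, received CY at 200 mg/kg on day 10 after inoculation, and no group without CY was analysed here. Tumours were resected 1 day before CY (day -1, which is day 9 after inoculation) from 13 complete responders (CR) and 13 progressors (PR, called partial responders in the series title), 3 days after CY (day +3, day 13 after inoculation) from 5 CR and 5 PR, and 7 days after CY (day +7, day 17 after inoculation) from 5 CR and 5 PR. Different mice were used at each time. Total counts per tumour were 10227681 to 14218987 at day -1, 15412744 to 18748688 at day +3 and 16047930 to 19446596 at day +7. The table used here runs in alphabetical order and ends at symbols starting with Pax, so later symbols were not analysed here, and totals, CPM and lists cover only the rows up to there. Time after CY, tumour age, depth and the set of mice cannot be told apart in this design. Of 13 mesothelial marker genes, 6 were abundant enough to test; Msln had a median of 374 CPM at day -1 (CPM are read counts scaled to a common library total), whereas Krt18, Krt19, Calb2 and Bnc1 had medians under 1 CPM, and Muc16 had a median of 0.

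Replication-dependent histone genes supply the H1, H2A, H2B, H3 and H4 proteins that package newly copied DNA, and most of their RNA is made in S phase. Their mRNAs end at a conserved stem-loop that is bound by the protein SLBP and cut with the help of the U7 snRNP, and they normally carry no poly(A) tail. Some of these genes can also produce longer, polyadenylated mRNAs that run past the stem-loop, a form known from cells that have left the cell cycle or are differentiating. A sequencing library made from poly(A) RNA records mainly the longer form. Whether poly(A) RNA was selected here is not given in the sources used here.

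The stem-loop is the sequence that sets this family apart, and it was found as a perfect 6-base stem around a 4-base loop after the stop codon in the annotated transcripts of 44 members, 21 to 58 bases downstream of the stop codon. It is shown for 4 members described in detail, with the stem-loop in capitals and 5 flanking bases on each side, 5′ to 3′ on the coding strand, as DNA letters from the GENCODE M21 transcripts.
Hist1h1c: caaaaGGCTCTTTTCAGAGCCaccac
Hist3h2a: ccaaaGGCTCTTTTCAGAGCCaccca
Hist1h1d: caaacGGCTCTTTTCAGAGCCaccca
Hist1h4i: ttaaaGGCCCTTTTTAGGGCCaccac
The stem of Hist1h1c, Hist3h2a and Hist1h1d with its loop was shared, letter for letter, by 26 members, none of which was an H4 gene. All 11 H4 members with a match had a different stem. Among the 33 members of the other classes, the same stem enclosed the loop TTTC in 26, TTTA in 6 and TTTT in 1.

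The members also differ in what lies beyond the stem-loop. In 22 members the annotated transcript runs at least 376 bases past the stop codon, called long-ended here, and in 45 it ends within 230 bases, called short-ended; 3 pseudogenes have no coding end. Hist1h1c (chr13:23738808-23740367, plus strand) continues for 840 bases after its stem-loop, Hist3h2a (chr11:58954685-58956830, plus strand) for 1643 bases and Hist1h4i (chr13:22040636-22041362, minus strand) for 330 bases. Hist1h1d (chr13:23553262-23560686, plus strand) continues for 4884 bases. No perfect stem-loop was found after the stop codon of Hist1h2bc (chr13:23684199-23692908, plus strand) or Hist2h2be (chr3:96221119-96223738, plus strand), whose transcripts run 742 and 2192 bases past the stop codon. The polyadenylation signal AATAAA was present in the last 50 bases of 10 of the 22 long-ended and 5 of the 45 short-ended members.

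Members share coding sequence, which limits how reads can be assigned. The authors' program, kallisto, compares reads with transcripts through short words of 31 bases by default, and a read whose words fit several genes is divided between them by estimation. A median of 70.7% of these words occurred in no other gene for long-ended members, and 31.7% for short-ended members. In 43 of 70 members fewer than 50% of the words were unique, and in 5 members none was. Values of these members are therefore uncertain one by one, and sums with near-copies are given below for only some of them. Among those described below without such a sum, 6.2% of the words were unique in Hist1h2ao and 13.8% in Hist1h4k. The share was 35.8% in Hist2h3c2, 39.8% in Hist1h3g and 43.7% in Hist1h2bg.

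**Figure D1:**
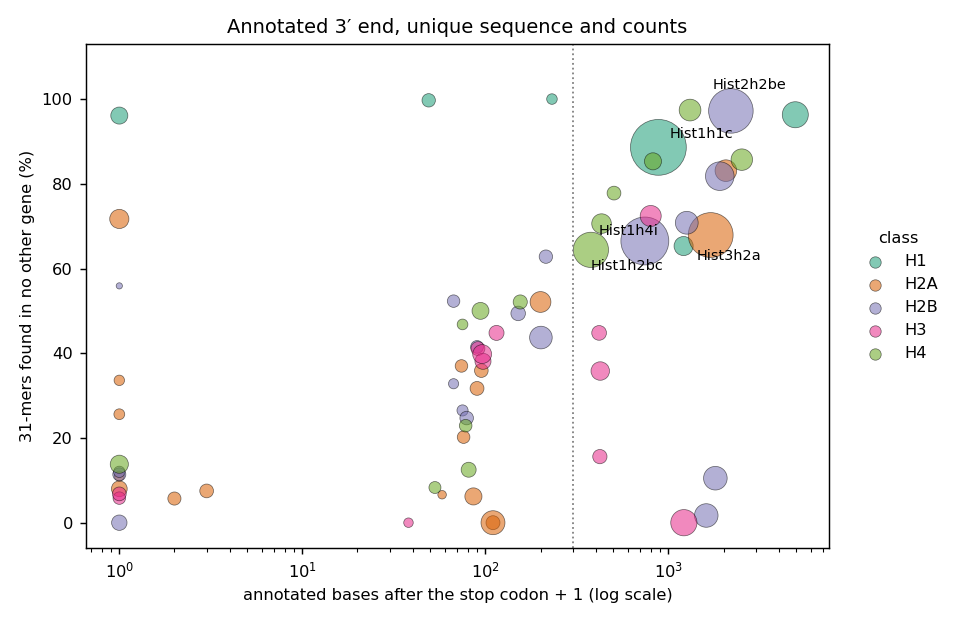
Each point is a histone gene, placed by the annotated bases after its stop codon plus 1 (log scale) and by the percentage of its 31-base words found in no other gene; area grows with the square root of its counts over 46 tumours, colours are histone classes, and the dotted line at 300 bases separates short-ended from long-ended members. The 5 genes with the most counts lie to the right of the line and above 60% unique words, whereas most short-ended members lie below 50%.

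Before CY, few members carried the counts. The 70 members together summed to 87.2 ± 7.20 CPM (SD, n = 26) at day -1, in units normalized by the trimmed mean of M values (TMM). In comparison, 13 replacement histone genes, most of which are transcribed throughout the cell cycle and give ordinary polyadenylated mRNAs, summed to 4649 ± 224 CPM in the same tumours. Hist1h1c, Hist1h2bc, Hist2h2be, Hist3h2a and Hist1h4i together held 77.03 ± 1.95% of the members' CPM at day -1. All 5 are long-ended. Scaled to the length of the longest annotated transcript, their mean levels at day -1 were 14.6 CPM per kb for Hist1h1c, 12.9 for Hist1h2bc, 7.58 for Hist1h4i, 5.22 for Hist2h2be and 4.78 for Hist3h2a. The next members per length were Hist1h4k, at 1.94 CPM per kb, and Hist2h2aa2, at 1.90 CPM per kb. The H3 class was the lowest in sum, at 3.31 ± 0.768 CPM. Only 14 members had a count in every tumour, and Hist1h2aj, a pseudogene, and Hist1h2ba, which encodes a testis H2B, had none in any tumour.

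Does the level of histone mRNA separate CR from PR? Tests used edgeR's quasi-likelihood method with Benjamini-Hochberg adjustment over all genes tested, at a false discovery rate (FDR) under 0.1, after a filter on low counts. No member was called in CR against PR at any time: 0 of 12 members tested at day -1, where 0.00928% of all genes tested were called, 0 of 18 at day +3 (0% of all genes) and 0 of 12 at day +7 (0% of all genes). At an unadjusted p under 0.05 in edgeR there was 1 of 12 members at day -1, where 17.5% of all genes had such a p, and none at day +3 (2.16% of all genes) or day +7 (2.84% of all genes). DESeq2 called none of the 5 members to which it gave an adjusted p at day -1 (4.98% of all genes with one), none of 18 at day +3 (0.0254%) and none of 12 at day +7 (0.0427%). limma-voom with quality weights called none of 12 at day -1, where it called 11% of all genes, none of 18 at day +3 (0%) and none of 12 at day +7 (0.00853%). The share of all genes called at day -1 thus differed between tools, and a count of 0 among so few members is near each of these shares.

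The member with the smallest p at day -1 was Hist4h4, the single gene of the Hist4 cluster, which encodes H4. Its level was 0.181 to 1.53 CPM in CR with a median of 0.843, and 0.692 to 2.32 CPM in PR with a median of 1.24. The ranges overlapped, and the log2 fold change of CR against PR was -0.51 (SE 0.22, adjusted p = 0.237). Hist2h2be and Hist1h1d followed, at -0.16 (SE 0.10, adjusted p = 0.380) and -0.18 (SE 0.15, adjusted p = 0.555). For the abundant members the intervals were narrow: the 95% interval of the log2 fold change at day -1 ran from -0.19 to 0.10 for Hist1h1c, from -0.13 to 0.18 for Hist1h2bc and from -0.17 to 0.14 for Hist3h2a.

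At day +3, Hist2h4, an H4 gene of the Hist2 cluster, measured 1.03, 1.08, 0.805, 1.21 and 0.652 CPM in the 5 CR and 0.890, 0.582, 0.730, 0.591 and 0.678 CPM in the 5 PR. Of the 5 PR, 3 lay within the CR range, and the log2 fold change was 0.45 (SE 0.23, adjusted p = 1.0). Hist1h4i measured 6.72, 8.61, 7.89, 6.09 and 6.02 CPM in CR and 6.23, 10.0, 9.04, 8.60 and 7.67 CPM in PR, again overlapping, with a log2 fold change of -0.23 (SE 0.14, adjusted p = 1.0). Hist1h2be, an H2B gene, had the third smallest p, with 0.13 (SE 0.14, adjusted p = 1.0).

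At day +7, Hist1h1c, which encodes the linker histone H1.2, measured 51.8, 60.7, 39.3, 31.9 and 43.5 CPM in CR and 67.8, 44.1, 45.2, 50.8 and 56.0 CPM in PR. The groups overlapped over most of their range, and the log2 fold change was -0.21 with a 95% interval from -0.59 to 0.17 (adjusted p = 0.967). Hist1h2bq and Hist1h2be had smaller p, at 0.75 (SE 0.49) and 0.27 (SE 0.19), both with an adjusted p of 0.967. With 5 tumours a group the intervals for scarce members at days +3 and +7 were wide, reaching from -1.44 to 1.97 for Hist2h2aa2 at day +3.

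**Figure D2:**
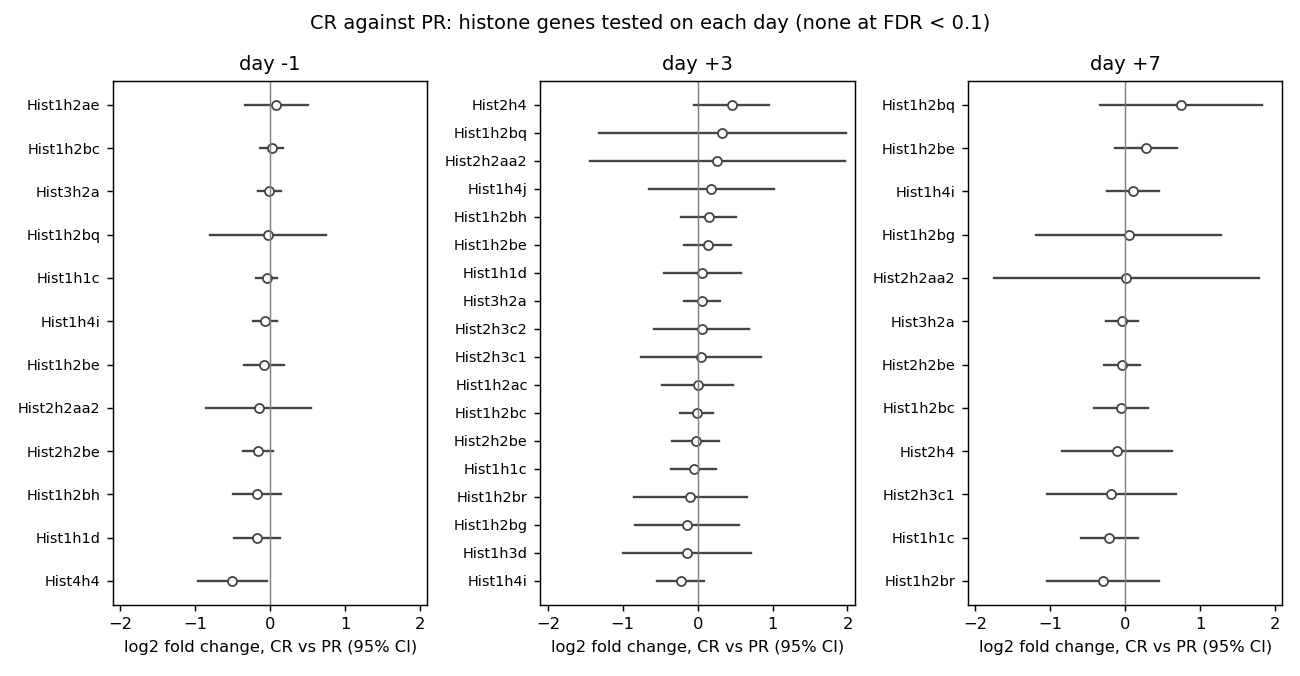
Points are log2 fold changes of CR against PR on each day for the histone genes that passed the filter, and bars are 95% intervals. No gene is filled, since none passed the FDR of 0.1; the intervals of the abundant genes stay close to 0, and those of Hist1h2bq and Hist2h2aa2 span more than 1 on either side at day +3.

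Nor was a difference between CR and PR in the change over time detected for any member in the model of all 46 tumours. Of 24 members tested, none was called for the difference of CR and PR at day +3 against that at day -1 (0% of all genes) or at day +7 against that at day -1 (0.00758% of all genes). In each of these comparisons 2 of 24 members had an unadjusted p under 0.05 in edgeR, where 3.49% of all genes did at day +3 and 11.5% at day +7. DESeq2 called none of 24 members at day +3 (0.0228% of all genes with an adjusted p) and none of the 10 with an adjusted p at day +7 (0.368%). limma-voom called no member and no gene (0%) in either. Hist2h3c1, an H3 gene, had the smallest p in both, with differences of -1.96 (SE 0.76, adjusted p = 1.0) and -2.18 (SE 0.77, adjusted p = 0.336) on the log2 scale. Its level at day -1 was 1.19 ± 0.691 CPM in CR and 0.289 ± 0.424 CPM in PR, with 0 counts in 1 and 7 of 13 tumours. None of its 31-base words is unique, and all occur in the gene model Gm20634. The sum of Hist2h3c1 and Gm20634 was 3.43 ± 0.866 CPM in CR and 3.32 ± 0.769 CPM in PR. Hist1h2ao at day +3 (-2.67, SE 1.252, adjusted p = 1.0), Hist1h2bh at day +3 (0.31, SE 0.27, adjusted p = 1.0) and at day +7 (0.80, SE 0.31, adjusted p = 0.381), and Hist1h1e at day +7 (-1.26, SE 0.67, adjusted p = 0.464) were the other members with the smallest p.

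Time after CY was followed in the model of all 46 tumours, with CR and PR given equal weight. At day +3, histone mRNA was higher in sum and the members split. The members' sum was 70.4 to 108 CPM with a median of 87.4 at day -1, and 133 to 182 CPM with a median of 152 at day +3. All 10 tumours at day +3 lay above all 26 at day -1, and the ratio of the means was 1.78. Of the 24 members that passed the filter, 14 were higher and 6 lower at day +3 than at day -1, where 37.9% of all genes tested were higher and 39.6% were lower. The median log2 fold change was 0.55 over these 24 members and -0.02 over all genes. Of the 24, 12 passed the filter in the day -1 tumours alone and 18 in the day +3 tumours alone. By class, 6 of 7 H2B, 3 of 4 H3, 2 of 5 H2A, 2 of 5 H4 and 1 of 3 H1 members tested were higher; 1 H3, 2 H2A, 2 H4 and 1 H1 members were lower.

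Hist1h1c ranged from 19.5 to 30.1 CPM with a median of 22.3 at day -1 and from 40 to 67.9 CPM with a median of 52.3 at day +3. The groups did not overlap, and the log2 fold change was 1.19 (SE 0.08, adjusted p = 5.89e-18). Hist1h2bc, an H2B gene, went from 11.6 to 19.9 CPM (median 14.96) to 27.5 to 38.4 CPM (median 30.0), again with no overlap (1.06, SE 0.07, adjusted p = 1.39e-17). Hist3h2a, the H2A gene of the Hist3 cluster, was 7.94 to 12.7 CPM (median 10.4) at day -1 and 16.3 to 22.8 CPM (median 18.2) at day +3. Its tumours also did not overlap (0.87, SE 0.06, adjusted p = 2.13e-16). In Hist3h2a 32.1% of the words are shared with Trim17, which was not analysed here.

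Hist1h2be followed the same course at a lower level, from 1.03 to 2.78 CPM (median 1.62) to 2.79 to 4.19 CPM (median 3.67), with a log2 fold change of 1.11 (SE 0.10, adjusted p = 2.40e-13). Hist2h2be rose by 0.59 (SE 0.08, adjusted p = 2.47e-08) and Hist1h4i by 0.48 (SE 0.07, adjusted p = 2.56e-07). Hist1h2ac, an H2A gene, rose by 1.31 (SE 0.21), from a median of 0.514 CPM to 1.26 CPM. Hist1h2br, another H2B gene, had the largest rise, 3.32 (SE 0.37, adjusted p = 7.49e-11), from a median of 0.0843 CPM to 2.31 CPM, but it shares 89.5% of its words with Hist1h2bq, which was not called (0.37, SE 0.39, adjusted p = 0.394). The sum of this pair was 1.13 ± 0.398 CPM at day -1 and 3.77 ± 0.984 CPM at day +3, a ratio of 3.35 with no overlap of the tumours.

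The 6 members that were lower at day +3 were scarce ones. They did not pass the filter in the day +3 tumours alone, so their direction is not independent of the filter. Hist1h2ae, an H2A gene, fell from 0.458 to 1.91 CPM (median 0.979) to 0.115 to 0.442 CPM (median 0.181), with no overlap and a log2 fold change of -2.12 (SE 0.27, adjusted p = 1.90e-09). Hist4h4 fell by 1.248 (SE 0.24, adjusted p = 9.36e-06), Hist1h4k by 2.09 (SE 0.44, adjusted p = 5.62e-05) and Hist1h3g by 1.18 (SE 0.30, adjusted p = 0.000504). Hist1h2ao fell by 3.46 (SE 0.56, adjusted p = 4.63e-07), and 5 of 10 tumours had no count of it at day +3 against 2 of 26 at day -1. Hist1h1e, a linker histone gene, was lower by a narrow margin (-0.65, SE 0.33, adjusted p = 0.0721); the call was lost with limma-voom (adjusted p = 0.122) and without the filter on low counts (adjusted p = 0.151).

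**Figure D3:**
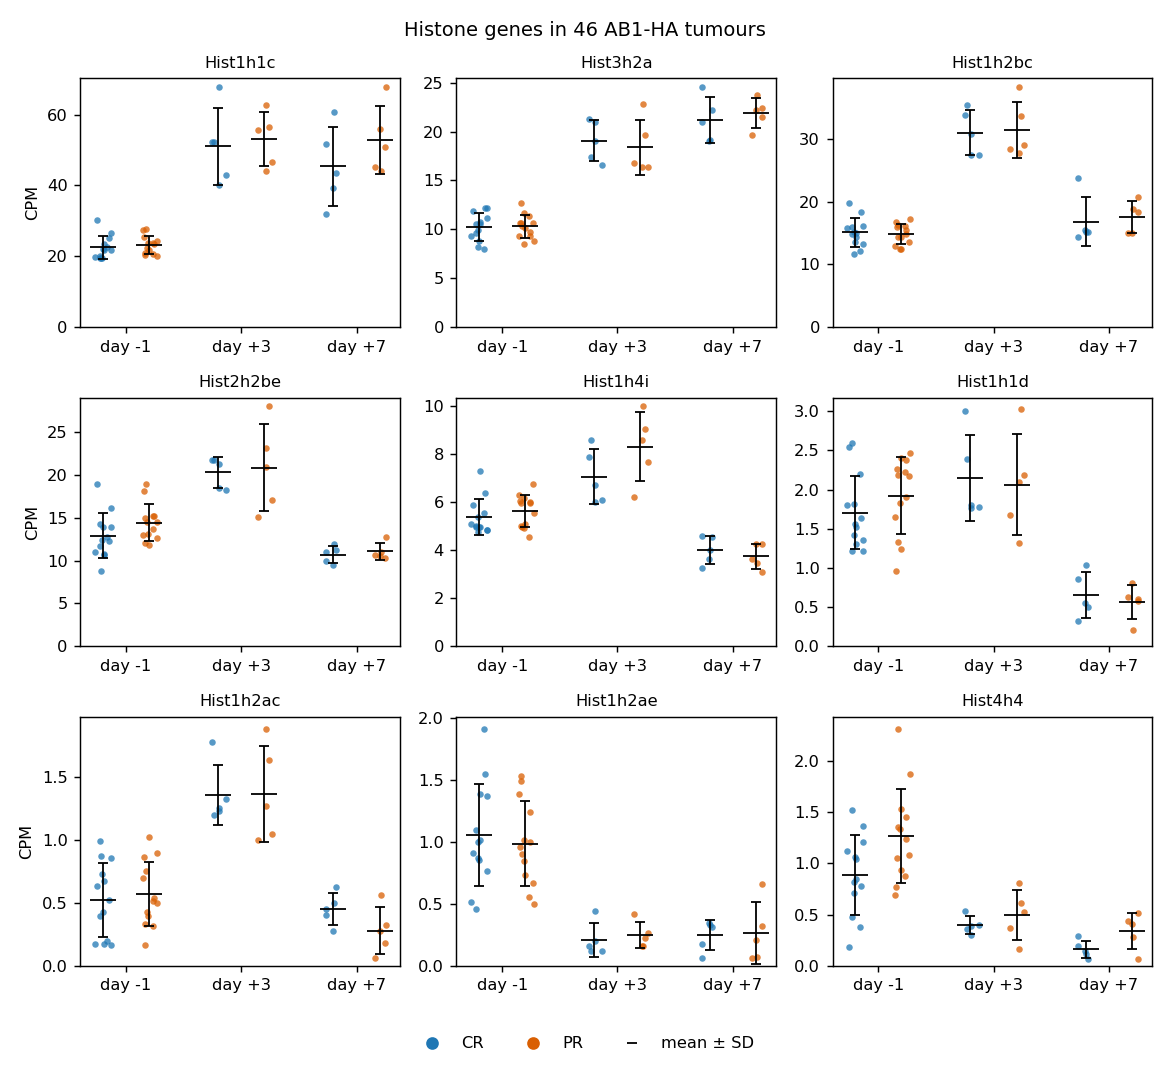
CPM of 9 histone genes in each tumour, with CR and PR side by side on each day; points are tumours and black marks are mean ± SD (n = 13, 5 and 5 for both CR and PR). Hist1h1c and Hist3h2a stay above their day -1 values at day +7, Hist1h2bc falls back to them, Hist1h4i, Hist1h1d and Hist1h2ac end below their day +3 values, and Hist1h2ae and Hist4h4 are lower from day +3 on; CR and PR overlap in each panel.

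Among the members tested, most long-ended ones were higher at day +3 and most short-ended ones were lower. Of 18 long-ended members tested, 13 were higher and 2 (Hist4h4 and Hist1h1e) lower. Of 6 short-ended members tested, 1 (Hist1h2bg) was higher and 4 lower. Hist1h2bg shares 46.8% of its words with the abundant Hist1h2bc. Over all genes tested, 37.9% were higher and 39.6% lower. The filter passed 18 of 22 long-ended but only 6 of 45 short-ended members, so these counts leave out most of the short-ended ones. A scarce member can also pass the filter through the day on which it is higher. The direction of scarce members is therefore not independent of the filter. Summed over all members whether tested or not, the 22 long-ended genes were 62.1 to 99.8 CPM at day -1 and 130 to 177 CPM at day +3, which did not overlap. The 45 short-ended genes summed to 6.20 to 11.7 CPM at day -1 and 2.42 to 8.64 CPM at day +3, which did. Long-ended members made up 89.7 ± 1.80% of the members' CPM at day -1, 96.4 ± 1.26% at day +3 and 95.6 ± 1.85% at day +7. The part of read assignment between near-copies in this split was not tested.

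At day +7 more of the members tested were called lower than higher. Only 12 of the 24 passed the filter in the day +7 tumours alone, so the direction of the others is not independent of the filter. Against day -1, 7 of 24 members were higher (43% of all genes tested) and 12 were lower (42.8% of all genes). The median log2 fold change was -0.41 over the 24 and -0.01 over all genes. Against day +3, 1 member was higher (38.8% of all genes) and 15 were lower (36.5% of all genes), with a median of -0.87. The members' sum was 98.5 to 142 CPM with a median of 117, which overlapped both earlier days.

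Hist1h1c and Hist3h2a kept their higher level. Hist1h1c was 31.9 to 67.8 CPM with a median of 48.0 at day +7, above every tumour of day -1 (1.10, SE 0.08, adjusted p = 4.74e-17) and not called against day +3 (-0.09, SE 0.10, adjusted p = 0.414). Without the tumours that had over 10 CPM of the keratinocyte gene Krt5 (5 CR and 5 PR at day -1, 1 PR at day +3, 2 CR and 3 PR at day +7) it was called lower against day +3 (-0.27, adjusted p = 0.0475). Hist3h2a was 19.0 to 24.6 CPM with a median of 21.8, above every tumour of day -1 (1.07, SE 0.06, adjusted p = 4.99e-20). It was the single member higher than at day +3, by 0.20 (SE 0.08, adjusted p = 0.0204), and that call was lost without the Krt5 tumours (0.10, adjusted p = 0.393) and without the filter on low counts (0.16, adjusted p = 0.113).

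Other abundant members returned to or fell below their level before CY. Hist1h2bc was 14.4 to 23.8 CPM with a median of 15.4 at day +7, below every tumour of day +3 (-0.86, SE 0.09, adjusted p = 1.34e-11) and overlapping day -1 (0.20, SE 0.08, adjusted p = 0.0137); without the Krt5 tumours the difference from day -1 was not called (0.08, adjusted p = 0.436). Hist2h2be was 9.46 to 12.8 CPM, below every tumour of day +3 (-0.92, SE 0.10, adjusted p = 1.12e-10), and lower than at day -1 by 0.32 (SE 0.09, adjusted p = 0.000925). Hist1h4i was 3.08 to 4.60 CPM, below every tumour of day +3 (-0.98, SE 0.09, adjusted p = 7.63e-13) and lower than at day -1 by 0.50 (SE 0.08, adjusted p = 2.50e-07).

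Hist1h1d, which encodes the linker histone H1.3, was not called at day +3, with 0.960 to 2.59 CPM at day -1 and 1.32 to 3.03 CPM at day +3. At day +7 it was 0.209 to 1.04 CPM, below every tumour of day +3 (-1.76, SE 0.20, adjusted p = 1.38e-10). Against day -1 it fell by 1.55 (SE 0.18, adjusted p = 1.64e-10), while Hist1h1c, of the same class, rose. Hist1h2ac and Hist1h2bh also lay below every tumour of day +3, at -1.92 (SE 0.28) and -1.24 (SE 0.17). Hist1h3d and Hist1h4j fell by 2.07 (SE 0.31) and 1.98 (SE 0.36) against day +3, and ended 1.43 and 1.299 below day -1 on the log2 scale. Apart from Hist1h1c, no member named in this paragraph passed the filter in the day +7 tumours alone.

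Several scarce members also fell from day -1 to day +7. None of those named here passed the filter in the day +7 tumours alone, so their direction is not independent of the filter. Hist1h3g, an H3 gene, was 0.250 to 1.22 CPM at day -1 and 0 to 0.189 CPM at day +7, with 0 counts in 6 of 10 tumours (-3.27, SE 0.41, adjusted p = 8.05e-10). Hist4h4 fell by 2.15 (SE 0.27, adjusted p = 1.23e-09). Hist1h4k had 192 counts over 26 tumours at day -1 and 2 counts over 10 tumours at day +7, a rate 48.0-fold lower with a 95% interval of 13.1 to 399 from counting alone (exact conditional binomial method, which covers counting error only). It has no annotated sequence after its stop codon, and 13.8% of its words are unique. Hist1h2ae and Hist1h2ao, which had fallen by day +3, stayed low at -1.95 (SE 0.27) and -2.50 (SE 0.50) against day -1 and were not called against day +3.

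**Figure D4:**
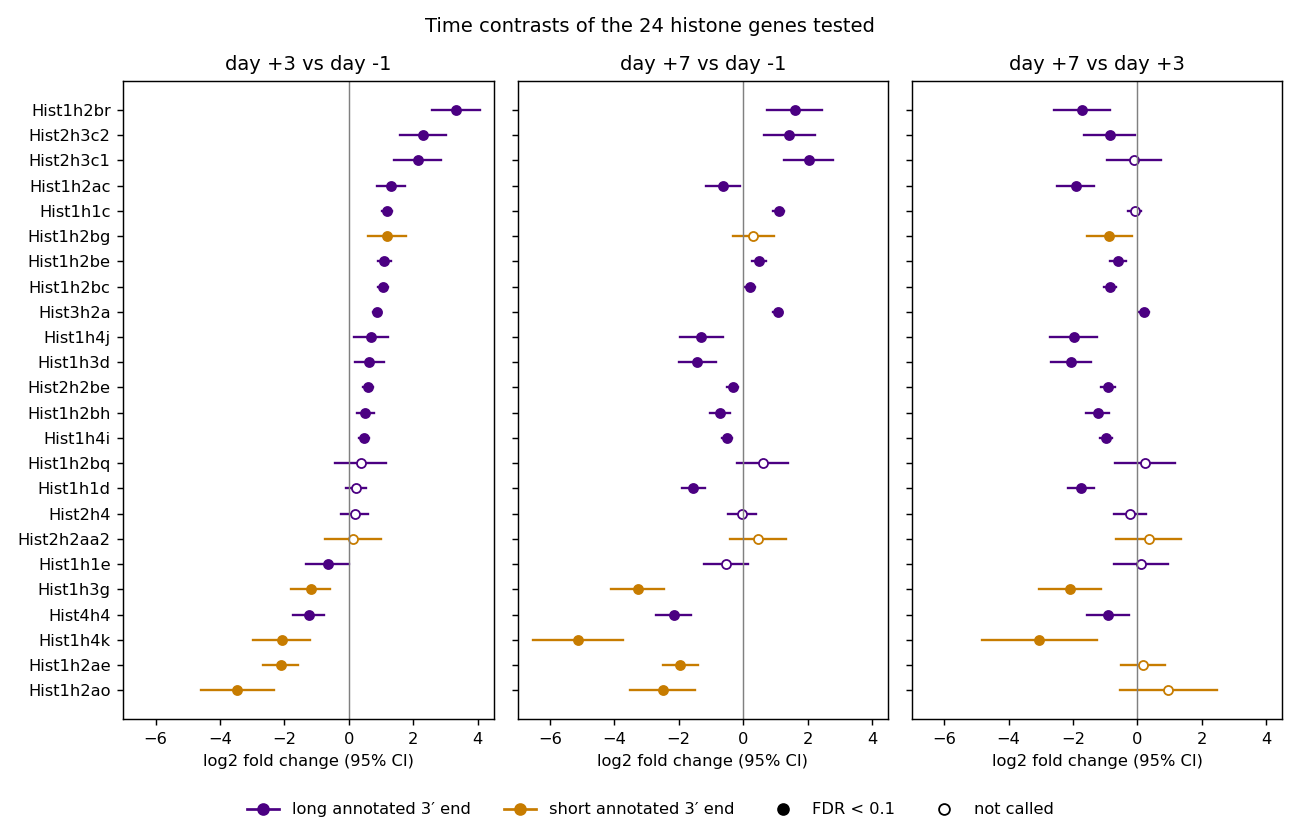
Log2 fold changes with 95% intervals of the 24 histone genes tested, for day +3 against day -1, day +7 against day -1 and day +7 against day +3; purple genes are long-ended, orange ones short-ended, and filled points passed an FDR of 0.1. Most long-ended genes lie to the right of 0 in the left panel and to the left of 0 in the right panel, and Hist1h1c and Hist3h2a stay near 1 in the middle panel.

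The H3 and H2A genes of the Hist2 cluster could be read only together with their near-copies. Hist2h3c1 and Hist2h3c2 were called higher at day +3 (2.14, SE 0.37, and 2.30, SE 0.35) and at day +7 against day -1 (2.03, SE 0.37, and 1.43, SE 0.39). The sum of Hist2h3c1 and the gene model Gm20634 went from 3.37 ± 0.804 CPM at day -1 to 7.92 ± 1.49 CPM at day +3 and 5.199 ± 0.871 CPM at day +7. Hist2h2aa2 was not called in any time comparison, and Hist2h2aa1 did not pass the filter; all of their words occur in the gene models Gm20632 and Gm20633. Summed over these 4 genes, the level was 6.11 ± 1.05 CPM at day -1, 11.7 ± 1.43 CPM at day +3 and 14.4 ± 2.03 CPM at day +7. Both later days lay above all tumours of day -1, with ratios of 1.91 and 2.36.

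The sums of the classes are given as a description, with no test, and are set beside the same sums without the most abundant gene. H1 summed to 25.7 ± 2.94 CPM at day -1, 54.8 ± 8.83 CPM at day +3 and 50.3 ± 10.8 CPM at day +7. Without Hist1h1c the H1 sums were 2.82, 2.66 and 1.18 CPM, which does not rise at either time. H2A summed to 15.2 ± 1.58, 22.2 ± 2.77 and 24.3 ± 3.06 CPM, and without Hist3h2a to 4.94, 3.44 and 2.76 CPM. H2B summed to 33.6 ± 4.28, 62.7 ± 8.17 and 34.7 ± 3.50 CPM; without Hist1h2bc the sums were 18.7, 31.4 and 17.5 CPM, so the rise at day +3 remained. H3 summed to 3.31 ± 0.768, 4.95 ± 1.21 and 3.79 ± 1.12 CPM, which overlapped between days. H4 summed to 9.38 ± 1.10, 10.9 ± 1.251 and 5.72 ± 0.787 CPM, and all day +7 tumours lay below all others.

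The sum of all members, most of it from long-ended genes, did not follow other genes of the dividing cell. A list of 32 S phase genes (among them the Mcm genes of the replicative helicase) summed to 2965 to 4105 CPM at day -1, 2449 to 2768 CPM at day +3 and 1281 to 1827 CPM at day +7, with no overlap between days. Of these 32 genes, 1 was higher and 25 lower at day +3, and 0 higher and 28 lower at day +7 against day -1. The shares over all genes tested were 37.9% higher and 39.6% lower at day +3, and 43% and 42.8% at day +7. Mcm2, a helicase subunit, fell by 0.98 (SE 0.05) at day +3 and by 1.63 (SE 0.06) at day +7. Of 28 mitosis genes, 5 were higher and 18 lower at day +3, and all 28 were lower at day +7. Anln, needed for cytokinesis, fell by 0.996 (SE 0.05) and 3.48 (SE 0.06). Over the S phase list the median log2 fold change was -0.49 at day +3 and -1.39 at day +7, and over the mitosis list -0.37 and -1.78, against -0.02 and -0.01 over all genes. The ratio of the histone sum to the S phase sum was 0.0239 ± 0.00265 at day -1, 0.0601 ± 0.00914 at day +3 and 0.0781 ± 0.0114 at day +7, with all values at both later days above all values at day -1. The ratio of Hist1h4i alone to the S phase sum was 0.00151 ± 0.000208, 0.00296 ± 0.000543 and 0.00258 ± 0.000602. Parts of the family did fall. Against day -1, mean short-ended sums had ratios of 0.629 at day +3 and 0.574 at day +7, with overlapping tumours. These ratios were 0.71 and 0.42 for S phase genes, and 1.92 and 1.45 for long-ended members. For H4 they were 1.16 and 0.61. Without the most abundant member of each class, the members' sum was higher at day +3 and lower at day +7 than at day -1.

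**Figure D5:**
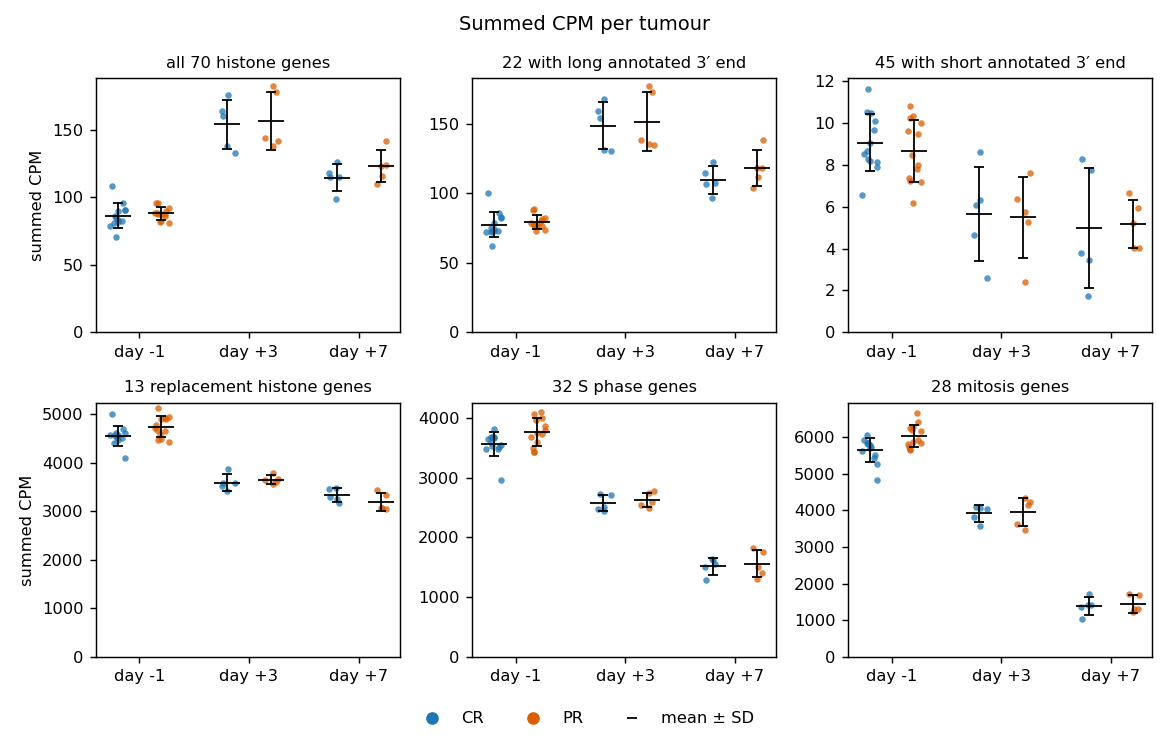
Summed CPM per tumour of all 70 histone genes, the 22 long-ended and 45 short-ended ones, 13 replacement histone genes, 32 S phase genes and 28 mitosis genes; points are tumours, blue for CR and orange for PR, and black marks are mean ± SD (n = 13, 5 and 5). The histone sum is highest at day +3, whereas the S phase and mitosis sums step down from day -1 to day +3 to day +7.

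Genes around the family were read from lists. Over all genes tested, 37.9% were higher and 39.6% lower at day +3, and 43% higher and 42.8% lower at day +7 against day -1. Of 11 replacement histone genes tested, 4 were higher and 5 lower at day +3, which is near these shares. At day +7 against day -1, 4 were higher and 6 lower. H1f0, the replacement linker histone known from resting cells, fell by 1.009 (SE 0.06) at day +3 and 1.60 (SE 0.06) at day +7, opposite to Hist1h1c. H2afy, which encodes macroH2A1, fell by 0.46 (SE 0.03) and then was 0.74 (SE 0.03) higher at day +7, and H2afv, which encodes an H2A.Z variant, was higher at day +3 (0.95, SE 0.05). Among 17 histone chaperone genes, of which Mcm2, Chaf1a and Chaf1b also stand in the S phase list, 3 were higher and 12 lower at day +3, and 1 higher and 16 lower at day +7. Nap1l1, a chaperone of H2A and H2B, fell by 0.94 (SE 0.03) and 1.301 (SE 0.03). Of 22 genes for histone transcription and 3′ end processing, 16 were in the rows analysed here; 2 were higher and 13 lower at day +3, and 2 higher and 12 lower at day +7. Npat, the coactivator of the histone clusters, fell by 1.14 (SE 0.04) and 1.61 (SE 0.04), and Eri1, an exonuclease that trims the histone stem-loop end, fell by 0.86 (SE 0.04) at day +3. Lsm10, a core protein of the U7 snRNP, was higher at both times (0.91, SE 0.04, and 1.19, SE 0.04).

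The RNA of marker genes of several cell types also changed with time. In bulk tumour RNA, a different share of cells of a type and a different amount of RNA per cell cannot be told apart. Counts below stand beside 37.9% of all genes higher and 39.6% lower at day +3, and 43% and 42.8% at day +7, against day -1. Macrophage markers (10 genes) summed to 2676 to 6700 CPM at day -1, 9638 to 13000 CPM at day +3 and 14360 to 22230 CPM at day +7; 9 of 10 were higher and 1 lower at day +3, and 10 of 10 higher at day +7 against day -1. T cell markers (10 genes) summed to 40.5 to 212 CPM, 42.6 to 111 CPM and 159 to 842 CPM, with 0 higher and 4 lower at day +3 and 10 of 10 higher at day +7. Red blood cell genes (7) were 1 higher and 5 lower at day +3 and 7 higher at day +7, and 9 of 10 skeletal muscle genes were higher at day +7. Of 8 keratinocyte genes, 4 were lower and none higher at day +3, and none was called at day +7. The summed keratinocyte level ran from 2.57 to 761 CPM at day -1, 6.46 to 741 CPM at day +3 and 5.92 to 467 CPM at day +7. Medians of 0 were found for Krt1 at days -1 and +7, for the red cell gene Hbb-bt at day +3, among others, and for no T cell, macrophage or muscle marker. The part of these cells in the histone changes was not tested.

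Promoters were read for the 61 members that matched the RefSeq promoter table by symbol or synonym (250 bases before to 50 bases after the start, GRCm38.p6). TATAAA on either strand was found in 57.4% of these members against 14.2% of 27025 promoters in the table, CCAAT in 85.2% against 37.9%, and ATTTGCAT, the octamer bound by Oct-1, in 21.3% against 1.8%. CCAAT was found in all promoters of the H1, H2A, H2B and H3 classes and in 3 of 12 H4 promoters. The octamer was found in 7 of 17 H2A and 6 of 16 H2B promoters and in none of the other classes. The 130 bases before the start are shown for 2 genes that stayed high at day +7 and 2 that were called lower than before CY (Hist1h2ac at -0.62, adjusted p = 0.0288, and at -0.51, adjusted p = 0.226, without the Krt5 tumours), 5′ to 3′ on the coding strand with motif matches in capitals. They are chr13:23738677-23738806 (plus strand) for Hist1h1c, chr11:58954555-58954684 (plus strand) for Hist3h2a, chr13:23554902-23555031 (plus strand) for Hist1h1d and chr13:23683960-23684089 (minus strand) for Hist1h2ac.
Hist1h1c: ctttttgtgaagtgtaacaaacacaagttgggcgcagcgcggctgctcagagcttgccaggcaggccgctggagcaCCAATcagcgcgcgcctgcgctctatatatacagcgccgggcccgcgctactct
Hist3h2a: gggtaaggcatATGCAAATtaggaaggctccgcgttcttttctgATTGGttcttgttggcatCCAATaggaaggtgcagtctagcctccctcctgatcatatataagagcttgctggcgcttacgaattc
Hist1h1d: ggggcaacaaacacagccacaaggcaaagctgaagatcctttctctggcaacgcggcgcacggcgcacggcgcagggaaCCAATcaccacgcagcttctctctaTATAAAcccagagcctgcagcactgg
Hist1h2ac: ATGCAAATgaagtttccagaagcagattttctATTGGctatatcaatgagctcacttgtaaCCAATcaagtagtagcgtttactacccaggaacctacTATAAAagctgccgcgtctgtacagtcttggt
Both H1 promoters carry CCAAT and lack the octamer, and both H2A promoters carry both. The exact string TATAAA is in the windows of Hist1h1d and Hist1h2ac and not in those of Hist1h1c and Hist3h2a. The windows of Hist1h1c and Hist3h2a hold the similar string tatata, so the exact search does not show that they lack a TATA box. This is a description of 4 chosen promoters.

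The remaining 46 members did not pass the filter in the model of all tumours. They held 3.59% of the members' counts, with a median of 49.5 counts and at most 284 counts (Hist1h2aa) over 46 tumours, against at least 169 for any member tested. Among them, 4 were long-ended. Of the testis genes, Hist1h1t, a testis linker histone, had a count in 9 of 46 tumours and 14 counts in all. Hist1h2aa, listed as a testis H2A gene, had a count in every tumour, at a median of 0.458 CPM at day -1, 0.369 at day +3 and 0.462 at day +7, but 27.5% of its words occur in Gm44344. With no filter on low counts 68 members were tested. At day +3 against day -1, 16 were higher (23.9% of all genes tested in this way) and 22 lower (20.4%). At day +7 against day -1, 9 were higher (25.6%) and 29 lower (24.6%), and against day +3, 4 were higher (19.4%) and 20 lower (20.8%).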

How the data were processed

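RNA-seq reads of 46 tumours, each from a different mouse, were assigned by the authors with kallisto to transcripts of GRCm38.p6, and the deposited values are whole-number counts per gene symbol. The labels give single-end reads of 50 bp, which differs from the study's methods, and library selection is not given in the sources used here. The table used here ends, in alphabetical order, at a row that is filled only in part; that row was left out of 46012, later symbols were not analysed here, and 13 rows carry dates in place of symbols. Counts were tested with edgeR 4.0.16 in R 4.3.3 (filterByExpr by group, TMM, quasi-likelihood test, Benjamini-Hochberg FDR under 0.1, the study's threshold): CR against PR within each day, and time and interaction contrasts in 1 model of all 46 tumours. Alternatives used DESeq2 1.42.0, limma 3.58.1 (voom with quality weights), other scalings and filters, and left out single tumours. The lowest depth makes 1 read worth 0.0978 CPM and the highest 0.0514 CPM. Scripts were tested on simulated data.

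Members and lists were chosen with earlier results of these data known. Named in each comparison were the 5 members with the smallest p in each direction among those called, or the 3 with the smallest p where none was called, with the 3 most abundant of each class and the testis genes; other members are named to complete a count. From the other lists, up to 4 genes a comparison were described. Sums carry no test. Words of 31 bases, stem-loops and 3′ ends were read from GENCODE M21 transcripts, promoters from a RefSeq table (GRCm38.p6).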

Additional observations from a re-analysis of the deposited data

Results flagged for a closer look

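In groups of 5 tumours, 17 of 114 sets of values held a tumour that stood apart from the other 4 by Dixon's criterion at the 95% level, which chance alone meets in about 1 of 20 sets. The sets are not independent, since members share tumours and reads.

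PR replicate 1 at day +7 stood apart in 5 sets. It had 2.5 CPM of Hist1h2bq against 0.339 to 0.904 in the other PR tumours, 12.8 CPM of Hist2h2be against 10.4 to 11, 4.36 CPM of Hist2h3c1 against 1.99 to 2.44, and 6.03 CPM of summed H3 against 2.89 to 3.73. Its Hist1h2be was lower, at 1.54 CPM against 2.23 to 2.39. CR replicate 4 at day +7 had 23.8 CPM of Hist1h2bc against 14.4 to 15.5, 42.0 CPM of summed H2B against 31.2 to 33.9, and 0.748 CPM of Hist1h2aa against 0.0639 to 0.188.

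At day +3, CR replicate 3 had 1.77 CPM of Hist1h2ac against 1.2 to 1.32, CR replicate 1 had 0.442 CPM of Hist1h2ae against 0.115 to 0.201, and CR replicate 4 had 0 CPM of Hist1h3g against 0.351 to 0.429. PR replicate 5 had 0.626 CPM of Hist1h2aa against 0.269 to 0.37, and PR replicate 3 had 0.225 CPM of Hist1h1t, from 4 counts, against 0 to 0.0537. The other values rest on 1 to 3 counts where the remaining tumours had 0: Hist1h2ao at 0.0598 CPM in CR replicate 2 at day +3, Hist1h1t at 0.0639 CPM in CR replicate 1 at day +7, Hist1h3g at 0.189 CPM in PR replicate 3 at day +7, and Hist1h4k at 0.136 CPM in PR replicate 5 at day +7.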

How the results depend on the processing

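No member was called between CR and PR, or for a difference in time course, under any alternative run, although DESeq2 gave no adjusted p to some members at day -1 and in the day +7 time course. No paired analysis was possible because each tumour came from a different mouse and the labels give no replicate numbers shared between groups. Depth limits the scarce members, and the filter decides how many are tested. Members called lower at day +3 against day -1 numbered 2 with at least 1 CPM required and 22 with no filter. Those lower at day +7 against day -1 numbered 29 with no filter. Those higher at day +7 against day +3 numbered 4 with no filter and 0 without the Krt5 tumours. With no filter, 68 members were tested. The shares of all genes in these 3 comparisons with no filter were 20.4% lower, 24.6% lower and 19.4% higher. Shares under the other settings are not given here. Leaving out single tumours gave 13 to 14 higher and 5 to 6 lower members at day +3 against day -1, 7 to 8 and 12 to 13 at day +7 against day -1, and 1 to 2 and 15 to 16 at day +7 against day +3, where 2 were higher without CR replicate 2 of day +3. Without the Krt5 tumours, Hist1h2ac was no longer called at day +7 against day -1 (adjusted p = 0.226).

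Directions turned only for values that had not been called. With limma-voom these were Hist1h2bq (-0.11) and Hist2h2aa2 (-0.81) at day +3 against day -1, Hist2h2aa2 (-0.22) and Hist2h4 (0.0544) at day +7 against day -1, and Hist2h3c1 (0.11) at day +7 against day +3. Without the Krt5 tumours these were Hist1h1c in CR against PR at day +7 (0.00483), Hist2h2aa2 at day +3 against day -1 (-0.0689), and Hist1h1e (-0.0183), Hist1h2ae (-0.72) and Hist1h2bq (-0.0844) at day +7 against day +3. When single tumours were left out, the values that turned ran from -0.263 to 0.32 for Hist2h2aa2 at day +3 against day -1 and from -0.136 to 0.0702 for Hist2h4 at day +7 against day -1. At day +7 against day +3 they ran from -0.246 to 0.278 for Hist1h1e, -0.212 to 0.399 for Hist1h2ae, -0.092 to 0.384 for Hist1h2bq, -0.038 to 0.73 for Hist2h2aa2 and -0.245 to 0.0426 for Hist2h3c1. The cause was not tested.

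With plain column totals the members' sum at day +7 was 104 CPM in CR and 110 CPM in PR. Without the most abundant member of each class it was 32 and 33.7 CPM in CR and PR at day -1, 43.2 and 42.9 CPM at day +3, and 24.8 and 24.5 CPM at day +7, so the sum then ended below its level before CY. By class, at days -1, +3 and +7, these sums were 2.82, 2.66 and 1.18 CPM for H1, 4.94, 3.44 and 2.76 CPM for H2A, 18.7, 31.4 and 17.5 CPM for H2B, and 3.87, 3.20 and 1.84 CPM for H4; for H3 they were 2.34 CPM at day +3 and 1.36 CPM at day +7. Leaving out single tumours moved the members' sum to between 149 and 159 CPM in CR and 150 and 162 CPM in PR at day +3, and to between 112 and 119 CPM in CR and 118 and 126 CPM in PR at day +7.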
